A study of Mus musculus with 24 samples.

Results

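The 12 untreated arrays of this series of 24 were ranked by, and their sets chosen by, the log2 expression of Lyz2, the gene of a lysozyme made in bulk by macrophages, monocytes and granulocytes, and the 6 highest (high-Lyz2 set) were compared across genes with the 6 lowest (low-Lyz2 set). The samples were mouse lymphomas that arose in Eμ-myc transgenic mice, in which an immunoglobulin enhancer drives the oncogene Myc in B-lineage cells. They were taken from enlarged lymph nodes and grown on irradiated NIH 3T3 mouse fibroblasts as feeder cells. All groups described here, controls included, carried the Myc transgene and a retrovirus (MSCVpuro) with Bcl2, which protects from apoptosis, and had been selected with puromycin. Each of the 12 lymphomas gave 1 untreated array and 1 array after 5 days in 0.05 µg/ml Adriamycin (ADR, a DNA-damaging drug) in culture. The untreated arrays chose the sets, so differences between them are given as a description without a p-value for any gene. The ADR arrays of the same lymphomas took no part in the choice and were tested.

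Lyz2 and its close paralog Lyz1 are used as marks of myeloid cells, the lineage of phagocytes that engulf debris and digest it in lysosomes. Macrophages also secrete matrix metalloproteinases, carry Fc receptors and C-type lectins, and store lipid. Dividing cells make cholesterol for new membranes through the mevalonate pathway, which the transcription factor SREBP-2 (gene Srebf2) switches on when membrane sterol is scarce and the protein Insig1 holds back when sterol is plentiful.

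Untreated Lyz2 ran from 11.90 to 13.36 in the high-Lyz2 set (lymphomas 5560, 6054, 3769, 3594, 2949 and 3802, from the top). It ran from 6.03 to 11.76 in the low-Lyz2 set (403, 7050, 5766, 2581, 1467 and 1570). The lowest member of the high set, lymphoma 3802 at 11.90, stood 0.14 above the highest member of the low set, lymphoma 403 at 11.76. Lymphomas 1467 at 7.30 and 1570 at 6.03 stood far below all others, so many results below are given without them too, as 6 lymphomas against 4. A difference printed only with them included may rest on them. The file names of the treated arrays fall into 2 naming sets, "DOX" and "sen", whose meaning is not given. The high set held 5 DOX and 1 sen lymphoma and the low set 2 DOX and 4 sen, so values within the DOX lymphomas (5 against 2) are given where they differ. After ADR the same lymphomas had Lyz2 at 13.47 ± 0.62 (SD, n = 6) and 12.54 ± 1.57 (SD, n = 6), a difference of 0.94 that an exact two-sided permutation test did not separate from 0 (p = 0.23, smallest possible p = 0.0022).

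**Figure D1:**
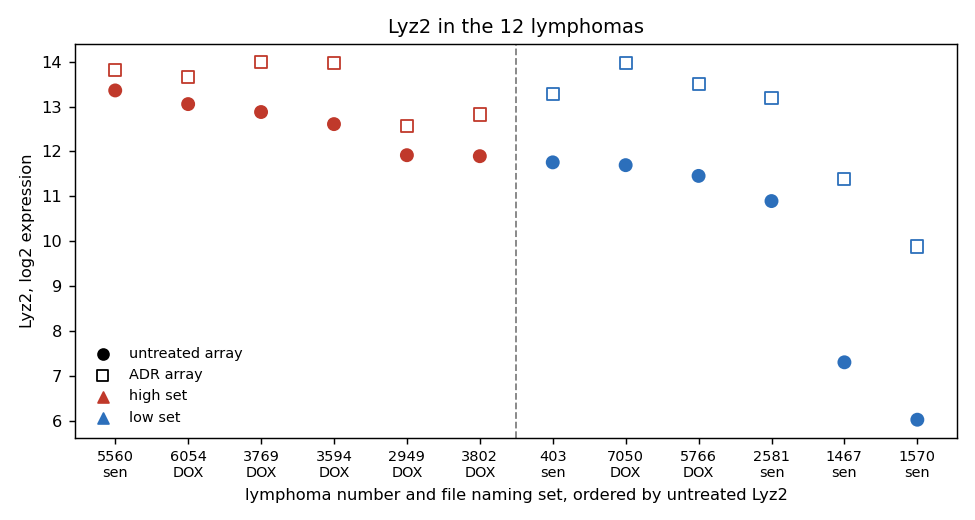
Log2 expression of Lyz2 in each of the 12 lymphomas, ordered by the untreated array, with filled circles for untreated and open squares for ADR arrays; the dashed line parts the high-Lyz2 (red) from the low-Lyz2 (blue) set. Lymphomas 1467 and 1570 lie at 7.30 and 6.03 untreated, below the other 10, and lymphomas 3802 and 403 on either side of the line differ by 0.14.

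The log2 levels of array medians ranged from 4.38 to 4.47 over the 24 arrays, and pairs of arrays correlated at 0.908 to 0.992. Of 45101 probe sets, 34945 named 1 gene, which gave 18193 genes. Levels at or below 4.47 are treated as background and get no fold. The untreated comparison had no gene at an adjusted p under 0.05 in limma (0% of 18193), with 1578 genes (8.67%) at an unadjusted p under 0.05 (956 higher, 5.25%, and 622 lower, 3.42%), and none either with limma's trend and robust options (1565 unadjusted). In 116 genes (0.638%) the 6 high and 6 low arrays did not overlap. Of these, 52 were higher in the high-Lyz2 set (0.286%), Lyz2 among them, and 64 were lower (0.352%). After each array was centred on its median, 36 of 106 such genes were higher, so the split between directions moves with the scaling. Over all genes the median difference was 0.03.

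Among the genes without overlap, the 3 with the largest higher levels were Mmp12, the predicted gene Gm31718 and Mmp8. Mmp12, the macrophage elastase, ran from 8.10 to 10.01 (median 8.68) in the high set and from 2.88 to 7.51 (median 4.79) in the low set. Every array of the high set stood above every array of the low set, where lymphomas 403 and 5766 were nearest and 1570 and 7050 were at background. The means were 8.83 ± 0.71 and 5.17 ± 1.85 (SD, n = 6 each), 12.6-fold higher, or 3.05 on the log2 scale without lymphomas 1467 and 1570 and 3.22 within the DOX lymphomas. Mmp8, a collagenase of neutrophils and macrophages, ran from 6.12 to 10.33 (median 7.31) against 3.96 to 6.06 (median 4.48). Lymphoma 5560 stood far above the rest of its set, and most low-set arrays were near background. The means of Mmp8 were 7.60 ± 1.42 and 4.67 ± 0.76 (SD, n = 6 each), a log2 difference of 2.93 that gets no fold because the low set lies so near background. Their promoters are shown because each gene has a window with the 8 letters of a core site of PU.1, the master factor of myeloid cells.

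The RefSeq table of the build GRCm38.p6 gives a window of 250 bases before to 50 bases after each start site, 18109 windows for 14452 genes on the array, so that some genes have several. The motif GAGGAAGT was searched on both strands and overlaps no other motif searched here. It occurs in 2.93% of the windows and in at least 1 window of 3.47% of the genes, in 1 of 21 macrophage and monocyte markers and in 2 of 18 C-type lectin and Fc receptor genes. In Mmp12 (chr9:7344147-7344396, plus strand) it spans -88 to -81 from the start site, and in Mmp8 (chr9:7558179-7558428, plus strand) -221 to -214, both on the strand opposite the gene. Mmp12 has a second window (chr9:7347124-7347423), which holds no match and is not printed. The windows of Lyz2, Lyz1, Cybb and Clec7a hold no match either. The 250 bases before each start site are given 5′ to 3′, with the match in capitals.
Mmp12: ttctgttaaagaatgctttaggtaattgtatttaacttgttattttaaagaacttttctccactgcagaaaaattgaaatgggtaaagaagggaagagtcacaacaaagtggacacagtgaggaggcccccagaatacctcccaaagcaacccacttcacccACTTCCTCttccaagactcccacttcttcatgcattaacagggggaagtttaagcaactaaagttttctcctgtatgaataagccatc
Mmp8: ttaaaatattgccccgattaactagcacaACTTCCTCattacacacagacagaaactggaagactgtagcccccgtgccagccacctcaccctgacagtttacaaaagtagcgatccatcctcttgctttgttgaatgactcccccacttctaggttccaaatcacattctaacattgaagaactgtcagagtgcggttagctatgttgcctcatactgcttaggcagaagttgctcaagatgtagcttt

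Further genes of granules and phagocyte activation were higher in the high-Lyz2 set with some overlap. S100a8, a calcium-binding alarmin of neutrophils and monocytes, ran from 4.55 to 8.74 (median 6.80) in the high set and from 3.59 to 5.12 (median 4.13), close to background, in the low set. Lymphomas 6054 and 3594 were highest at 8.72 and 8.74, and lymphoma 3802 at 4.55 lay inside the low set's range. Its partner S100a9 was at background in both sets, at 3.11 and 3.27. Mmp9, a gelatinase, was 4.02-fold higher, at 7.27 ± 1.35 against 5.27 ± 0.52 (SD, n = 6 each). The mean of arginase Arg1 was 2.84 higher on the log2 scale, but its arrays ran from 3.79 to 10.73 in the high set and most of the low set was at background. Of 17 measured neutrophil and granule genes, 12 were higher, against 57.1% of all genes, and 4 at least 2-fold higher. Their median difference was 0.08. Only 8 of the 17 had a mean above background, and the defining neutrophil genes Mpo, Ngp and Elane were at background in both sets. The interleukin-1 decoy receptor Il1r2 went the other way, at 5.00 against 6.55, and lymphomas 1467 and 1570 stood apart at 10.10 and 7.42 (difference -0.44 without 1467 and 1570). Over all genes, 120 (0.66%) were at least 2-fold higher and 82 (0.451%) at least 2-fold lower.

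Macrophage and monocyte markers were higher on balance, though none of them separated the sets. In the high-Lyz2 set 24 of the 27 measured markers were higher, against 57.1% of all genes. The difference was 2-fold or more in 7 markers, against 0.66% of all genes, and its median was 0.69. Lyz1, read by probe sets that follow the ranking gene Lyz2, is counted in the 24, the 7 and the median. The median was 0.17 without lymphomas 1467 and 1570 and 0.14 within the DOX lymphomas, so most of it rests on the lymphomas at the bottom. Without lymphoma 5560, the highest in Lyz2, it was 0.40. Csf1r, the receptor for macrophage colony-stimulating factor, ran from 6.61 to 10.58 (median 9.46) in the high set and from 5.07 to 10.65 (median 7.91) in the low set. The sets overlapped almost wholly: lymphoma 403 of the low set had the highest level of all, and lymphoma 2949 of the high set was below 4 of the low set. The difference of 1.41 was 0.17 without 1467 and 1570. Adgre1, which encodes the macrophage surface protein F4/80, differed by 0.73, and by -0.30 without those lymphomas. The scavenger receptor gene Cd68 overlapped between sets, with 9.80 ± 0.83 and 8.80 ± 1.37 (SD, n = 6 each).

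Some macrophage genes kept a larger difference. Mpeg1, a pore-forming protein of phagocytes, was at 10.19 ± 0.74 and 8.42 ± 1.24 (SD, n = 6 each), 3.42-fold higher, and 1.07 higher on the log2 scale without 1467 and 1570. Cd14, the lipopolysaccharide co-receptor, differed by 1.87 and by 1.09 without them, within a spread of over 2 in each set. Gpnmb, a glycoprotein of lipid-laden macrophages, differed by 1.90 with 1467 and 1570 included, and its difference without them is not given here. Marco, a scavenger receptor, was lower at 5.38 against 5.78. Cd163 and Chil3 were at background in both sets. Lyz1 is read by probe sets of a design that may cross-hybridise among related transcripts, and they correlate at 0.996 with Lyz2 over the 12 untreated arrays, while the Lyz1 probe set without that design is at background (mean 3.65). Its difference of 2.38 is therefore uncertain as a measure of Lyz1. In these bulk cultures, fewer myeloid cells and less RNA per myeloid cell cannot be told apart.

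**Figure D2:**
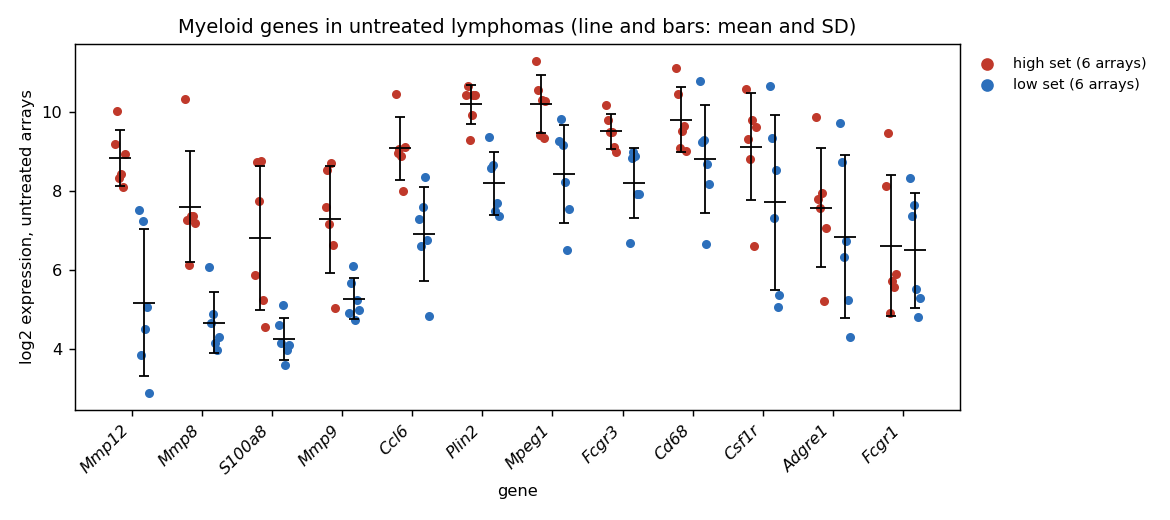
Log2 expression of 12 myeloid genes in the untreated arrays of the high-Lyz2 (red) and low-Lyz2 (blue) set, each point 1 lymphoma, with lines and bars for the mean and SD of 6 arrays. Mmp12 and Mmp8 do not overlap between sets, whereas Csf1r, Adgre1 and Fcgr1 overlap over most of their range.

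Among 22 measured C-type lectins and Fc receptors, 16 were higher, against 57.1% of all genes. Their median difference was 0.33, and 0.09 without 1467 and 1570. Fcgr3, a low-affinity IgG receptor, ran from 8.97 to 10.17 (median 9.49) against 6.67 to 8.99 (median 8.38). The lymphomas of the 2 sets met only at 3802 (8.97) and 5766 (8.99), and the mean was 2.47-fold higher. Clec4d, a lectin for mycobacterial glycolipid, differed by 1.62, and by 0.41 without the lymphomas at the bottom. The high-affinity receptor gene Fcgr1 differed by 0.12. Fcer2a, the low-affinity IgE receptor CD23 of mature B cells, was the exception at -1.43: it was at background in 10 lymphomas and at 6.83 and 9.11 in lymphomas 1467 and 1570.

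Of 19 lipid and iron handling genes of macrophages, 12 were higher in the high-Lyz2 set, against 57.1% of all genes. The median difference was 0.13, or 0.11 without 1467 and 1570. At least 2-fold higher were 2 of the 19, against 0.66% of all genes. Those 2 were Plin2 and Fabp4. Plin2, which coats lipid droplets, ran from 9.29 to 10.65 (median 10.42) in the high set and from 7.36 to 9.36 (median 8.13) in the low set. The ranges touched only at lymphomas 3769 and 403, and the means of 10.18 ± 0.50 and 8.19 ± 0.79 (SD, n = 6 each) differed 3.99-fold. Fabp4, a fatty-acid carrier of macrophages and fat cells, differed by 2.53 on the log2 scale, with values from 3.90 to 9.57 in the high set and a low-set median of 4.00, at background. Of 31 measured lysosome genes, 28 were higher, against 57.1% of all genes, and none 2-fold higher. Their median difference was 0.23, and 0.20 without 1467 and 1570. Hexa, a subunit of a lysosomal hexosaminidase, differed by 0.98 and the protease gene Ctsk by 0.97. Sqstm1, an autophagy receptor, did not overlap and was 1.70-fold higher, at 10.70 ± 0.44 against 9.94 ± 0.26 (SD, n = 6 each). Atp6v1e1 encodes part of the V-ATPase, which makes lysosomes acid; it did not overlap and was 1.53-fold higher, at 9.87 ± 0.22 against 9.25 ± 0.16 (SD, n = 6 each). Emb, a partner of monocarboxylate transporters at the cell surface, was 1.66-fold higher without overlap, at 11.10 ± 0.10 against 10.37 ± 0.36 (SD, n = 6 each).

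The remaining non-overlapping genes with the largest higher levels were of mixed function. Gm31718, a predicted gene, was at 9.13 ± 0.57 against 5.85 ± 1.21 (SD, n = 6 each), 9.72-fold higher. Cyp4f18, a fatty-acid hydroxylase of neutrophils and B cells, was 2.02-fold higher, the adhesion molecule Ceacam1 1.55-fold, the deubiquitinase Mindy1 1.53-fold and the deacetylase Sirt7 1.47-fold. 2610037D02Rik and Nol3 were near background, at 4.81 and 4.36 in the high set. Chemokine genes were split evenly (12 of 23 higher, against 57.1% of all genes, median 0.00), with Ccl6 at 9.07 ± 0.79 against 6.90 ± 1.19 (SD, n = 6 each) and Ccl9 higher by 1.56. Among regulators, the myeloid factors Spi1 (PU.1) and Cebpb differed by 0.14 and 0.75, and Cebpd by 1.60. Il1rn, an interleukin-1 antagonist, differed by 1.89. Csf1, the growth factor of macrophages, differed by 0.51, and Tnfsf13b (BAFF), a B-cell survival factor, was at background in both sets, at 3.81 and 4.10.

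Fibroblast RNA of the feeder layer was also measured. Of 30 fibroblast markers, 21 were higher in the high-Lyz2 set, against 57.1% of all genes, and 1 at least 2-fold (Fstl1, 1.10). The median difference of the 30 was 0.05. Their summed log2 level ran from 148.92 to 171.79 in the high set and from 144.51 to 163.74 in the low set. The collagen gene Col1a2 was at 5.35 ± 0.96 and 5.38 ± 0.76 (SD, n = 6 each), above the others in lymphomas 6054 (7.18) and 5766 (6.90). With the mean of these markers as a covariate the macrophage list's median was 0.53.

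The lower side was led by cholesterol synthesis. All 16 measured genes (of 19 listed) were lower in the high-Lyz2 set, against 42.9% of all genes. Of the 16, 14 were at least 2-fold lower, against 0.451% of all genes. In 7 of the 16 (Hmgcs1, Lss, Cyp51, Dhcr7, Sc5d, Insig1 and Srebf2) the sets did not overlap, against 0.352% of all genes lower without overlap. The median difference was -1.13, and it was -0.96 without lymphomas 1467 and 1570, -0.98 within the DOX lymphomas and -1.33 within the sen lymphomas (1 against 4). It was smaller with the Lyz2 level as a continuous predictor in place of the 2 sets, scaled to the distance between the set means. That fit gave -0.72, or -0.49 without 1467 and 1570. It called 50 genes at an adjusted p under 0.05 in limma, and 0 of the 16 were among them. The list's mean level was 7.52, 7.45, 8.25, 7.22, 7.0 and 7.88 in lymphomas 5560, 6054, 3769, 3594, 2949 and 3802. It was 8.56, 8.54, 8.42, 8.85, 9.03 and 9.28 in lymphomas 403, 7050, 5766, 2581, 1467 and 1570. Every lymphoma of the high set lay below every lymphoma of the low set, with 3769 and 5766 nearest. Over the 10 lymphomas other than 1467 and 1570, the list mean and Lyz2 correlated at r = -0.62 as a description. All 12 lymphomas are described with 1 culture protocol and array type, and a part of culture or array handling in this difference was not tested. Within the high set the order of Lyz2 was not the order of the list, since lymphoma 2949 was lowest.

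The enzymes follow the pathway from acetyl units to cholesterol. Hmgcs1, which makes HMG-CoA at the entry of the mevalonate pathway, ran from 8.20 to 10.14 (median 9.25) in the high set and from 10.43 to 11.27 (median 10.79) in the low set. No high-set array reached the low set, and lymphoma 3769 came nearest. Its means of 9.10 ± 0.73 and 10.86 ± 0.34 (SD, n = 6 each) were 3.37-fold apart. The kinases Mvk and Pmvk and the decarboxylase Mvd, which turn mevalonate into isoprene units, were lower by 1.55-, 2.03- and 2.14-fold with overlap. Idi1, the isomerase of those units, ran from 6.98 to 9.68 against 9.52 to 10.63, and Fdps, which joins them to farnesyl diphosphate, from 8.21 to 10.09 against 9.87 to 11.46. In both genes lymphoma 3769 was the sole member of the high set that reached into the low set's range, and the means were 3.16- and 3.13-fold lower. The squalene synthase gene Fdft1 was 2.22-fold and the epoxidase gene Sqle 2.06-fold lower, with overlap.

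From squalene on, separation was most complete. Lss, the cyclase that forms lanosterol, ran from 5.97 to 6.78 (median 6.38) against 7.15 to 8.50 (median 7.72). Cyp51, the lanosterol demethylase, ran from 6.77 to 8.12 (median 7.32) against 8.12 to 9.34 (median 8.87). Msmo1, the methyl oxidase that follows, ran from 6.51 to 8.75 (median 8.09) against 9.16 to 10.24 (median 9.41). In these genes every high-set array stood below every low-set array, for Cyp51 by the smallest margin, and the means were 2.54-, 2.82- and 3.42-fold lower. Nsdhl was 2.12-fold lower with overlap, and Hsd17b7, the next reductase, 1.62-fold lower without overlap. The late enzymes Sc5d and Dhcr7, which make the final double-bond changes, were 1.75- and 2.15-fold lower, both without overlap. The smallest differences were in the sterol isomerase Ebp (-0.40) and the reductase Tm7sf2 (-0.52). A list of 17 enzymes in pathway order was put together after the values had been seen. All 17 were lower, against 42.9% of all genes, and 12 at least 2-fold lower, against 0.451%.

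**Figure D3:**
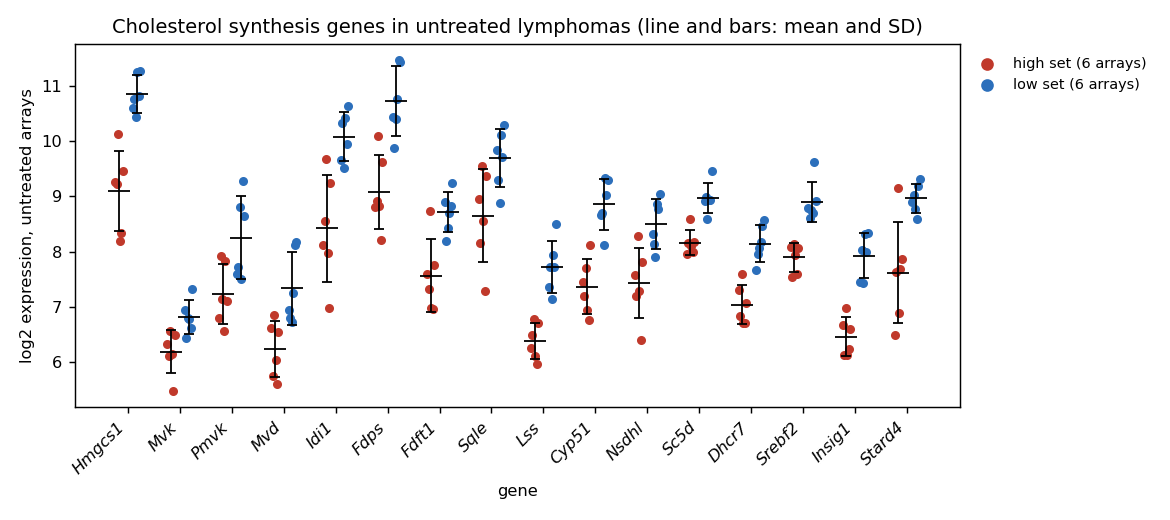
Log2 expression of the 16 cholesterol synthesis genes in the untreated arrays of the high-Lyz2 (red) and low-Lyz2 (blue) set, each point 1 lymphoma, with lines and bars for the mean and SD of 6 arrays. The mean of every gene is lower in the high-Lyz2 set, and Hmgcs1, Lss, Cyp51, Sc5d, Dhcr7, Srebf2 and Insig1 do not overlap.

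Of 10 sterol sensing and uptake genes, a list put together after the values had been seen, 7 were higher and 3 lower, with a median of 0.06. The 3 lower ones were Srebf2, Insig1 and Stard4, which are also in the cholesterol list. Srebf2 ran from 7.55 to 8.13 (median 8.01) in the high set and from 8.62 to 9.62 (median 8.77) in the low set. The sets lay apart with a wide gap, and the means of 7.90 ± 0.26 and 8.90 ± 0.37 (SD, n = 6 each) were 2.0-fold apart. Insig1, itself a target of SREBP-2, ran from 6.13 to 6.98 (median 6.42) against 7.43 to 8.34 (median 8.01). It was likewise separate in every lymphoma, 2.76-fold lower. Stard4, a carrier of sterol inside cells, was 2.54-fold lower with overlap. Apart from Insig1, genes that act on SREBP after its synthesis differed little: Scap (0.05), the proteases Mbtps1 (0.07) and Mbtps2 (0.05), and Insig2 (0.17). Mylip, whose product degrades lipoprotein receptors, was 1.69-fold higher. Fatty acid synthesis, which the related factor SREBP-1 drives, was lower to a smaller degree. In another list put together afterwards, 10 of 13 genes were lower, against 42.9% of all genes, with a median of -0.39. Srebf1 (1.52-fold lower) did not overlap, and the desaturases Scd1 (2.41-fold) and Fads2 (2.58-fold) and the elongase Elovl6 (2.34-fold) overlapped. Of 8 LXR target genes, which respond to sterol excess, 4 were higher and 4 lower, with a median of -0.01. Abca1 (-0.18) and Abcg1 (-0.26) were among the 4 lower ones.

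The promoters of 5 of these genes without overlap between the sets are shown because SREBP is known to act through a sterol element together with the factor NF-Y, which binds CCAAT boxes. The sterol element was searched as TCACNCCAC and the box as CCAAT, on both strands and with no overlap between them. The 12 of the 16 measured genes that matched the table have 15 windows, of which 12 (80.0%) hold CCAAT, against 37.4% of all windows. Each of the 12 genes has at least 1 such window, as do 42.0% of all genes with a window, but Dhcr7 and Pmvk also have windows without a match. TCACNCCAC occurs in 1 of the 12, Hmgcs1, at -137 to -129, and in 1.46% of all genes. The 250 bases before the start site are given 5′ to 3′ on the gene's strand, with both motifs in capitals (a box on the opposite strand reads ATTGG), for Hmgcs1 (chr13:119690101-119690350, plus strand), Msmo1 (chr8:64733579-64733828, minus), Cyp51 (chr5:4104698-4104947, minus), Lss (chr10:76531355-76531604, plus) and Insig1 (chr5:28071162-28071411, plus), from RefSeq on GRCm38.p6.
Hmgcs1: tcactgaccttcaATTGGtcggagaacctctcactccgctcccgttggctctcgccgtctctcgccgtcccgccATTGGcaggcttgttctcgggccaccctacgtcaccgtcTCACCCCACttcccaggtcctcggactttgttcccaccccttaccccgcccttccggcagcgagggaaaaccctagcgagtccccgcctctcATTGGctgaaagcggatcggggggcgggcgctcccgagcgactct
Msmo1: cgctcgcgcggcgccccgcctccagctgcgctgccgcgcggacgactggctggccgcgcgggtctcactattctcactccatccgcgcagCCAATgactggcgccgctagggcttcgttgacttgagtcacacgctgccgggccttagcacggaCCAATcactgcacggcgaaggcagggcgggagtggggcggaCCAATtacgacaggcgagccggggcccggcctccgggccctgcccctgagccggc
Cyp51: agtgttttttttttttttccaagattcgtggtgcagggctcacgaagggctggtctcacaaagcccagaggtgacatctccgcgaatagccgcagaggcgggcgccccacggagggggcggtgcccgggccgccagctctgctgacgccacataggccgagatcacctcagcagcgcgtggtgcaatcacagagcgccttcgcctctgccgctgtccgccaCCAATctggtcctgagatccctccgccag
Lss: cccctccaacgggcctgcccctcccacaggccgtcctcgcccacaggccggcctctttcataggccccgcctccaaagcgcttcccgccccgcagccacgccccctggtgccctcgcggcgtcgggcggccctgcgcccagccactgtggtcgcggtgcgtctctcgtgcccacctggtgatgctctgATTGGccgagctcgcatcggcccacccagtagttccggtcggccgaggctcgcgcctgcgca
Insig1: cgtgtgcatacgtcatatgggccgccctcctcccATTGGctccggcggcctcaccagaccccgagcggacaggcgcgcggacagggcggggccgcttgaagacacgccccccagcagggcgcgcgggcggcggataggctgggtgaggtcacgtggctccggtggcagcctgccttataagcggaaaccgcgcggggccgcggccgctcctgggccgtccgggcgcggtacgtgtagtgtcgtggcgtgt

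Of the other genes with the largest lower levels without overlap, Ptger4, a receptor for prostaglandin E2, ran from 5.70 to 7.17 (median 6.62) against 7.27 to 9.56 (median 7.56). The sets met closely, at lymphomas 6054 and 7050, and 1467 and 1570 were highest. The mean was 2.77-fold lower, or 0.91 lower on the log2 scale without those lymphomas. Nbdy, a factor of mRNA decapping, was at background in the high set, at 3.78, and at 5.76 in the low set, where 7050 and 5766 were at background too.

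Genes of DNA replication and division were slightly lower in the high-Lyz2 set. Of 27 replication genes, 26 were lower, against 42.9% of all genes, and none 2-fold lower. Their median was -0.38, which was -0.44 without 1467 and 1570 and -0.24 without lymphoma 5560. Rfc4, a subunit of the clamp loader, ran from 8.67 to 9.09 (median 8.94) against 9.34 to 9.75 (median 9.51). It was the 1 member whose sets did not overlap, at 8.92 ± 0.14 and 9.55 ± 0.16 (SD, n = 6 each). Ung, which removes uracil from DNA, was 1.76-fold lower and the helicase subunit Mcm5 1.55-fold lower. Of 29 mitosis genes, 27 were lower with a median of -0.26, which was -0.08 within the DOX lymphomas and -0.12 without lymphoma 5560. The kinase gene Aurkb differed by -0.60 and Cdc20 by -0.56, while Ndc80 was higher by 0.41. The list mean was lowest in lymphoma 5560 (8.53), which had the highest Lyz2. Mki67 (10.64 ± 0.52 against 10.90 ± 0.18) and Myc (10.97 ± 0.51 against 11.22 ± 0.43; SD, n = 6 each) overlapped, as did Bcl2 (12.06 ± 0.38 against 11.63 ± 0.53), which the retrovirus supplies. Of 25 ribosome biogenesis genes 23 were lower, with a median of -0.16. The p53 target Cdkn1a was at 10.68 ± 0.93 against 10.18 ± 0.92.

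Genes that mark B-cell stage varied between single lymphomas of each set. Of 13 genes of the pre-B receptor and of recombination, 11 were higher in the high-Lyz2 set, against 57.1% of all genes. At least 2-fold higher were 6, against 0.66% of all genes. The median of the 13 was 0.34, or 0.23 without 1467 and 1570. Their mean level ran from 6.95 to 7.55 in the high set, and lymphomas 5766 (7.40) and 2581 (7.30) of the low set lay within that range. Il7r, the interleukin-7 receptor of early B cells, ran from 7.69 to 9.80 (median 9.28) against 3.89 to 8.96 (median 6.68). Lymphomas 1467 (3.89) and 1570 (4.23) were at background, and the difference of 2.58 was 1.35 without them. Vpreb1, a surrogate light chain, ran from 5.65 to 10.49 (median 6.32) against 4.01 to 7.25 (median 4.36), with 3802 and 5560 far above the rest. Dntt, the enzyme that adds untemplated bases, was high in 3769 (10.08) and 3594 (9.60) and at 5.72 or below in all others, so that single lymphomas set both differences. Of 12 genes of MHC class II presentation, 9 were lower, against 42.9% of all genes. Their median was -0.65, which was -0.17 without 1467 and 1570 and turned to 0.21 within the DOX lymphomas. H2-DMb2, a peptide-loading chaperone, was at 11.38 and 11.19 in 1467 and 1570 and at 7.12 to 9.36 in the other lymphomas. Ms4a1, which encodes CD20, was likewise highest there, at 9.77 and 10.38. The B-cell receptor subunit gene Cd79a was at 10.60 ± 0.43 and 10.66 ± 0.56 (SD, n = 6 each), and 24 surface and signalling genes had a median of -0.11, which turned to 0.15 without 1467 and 1570. Pax5, the factor that fixes B identity, was near background at 5.09 and 5.00 on its probe set.

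**Figure D4:**
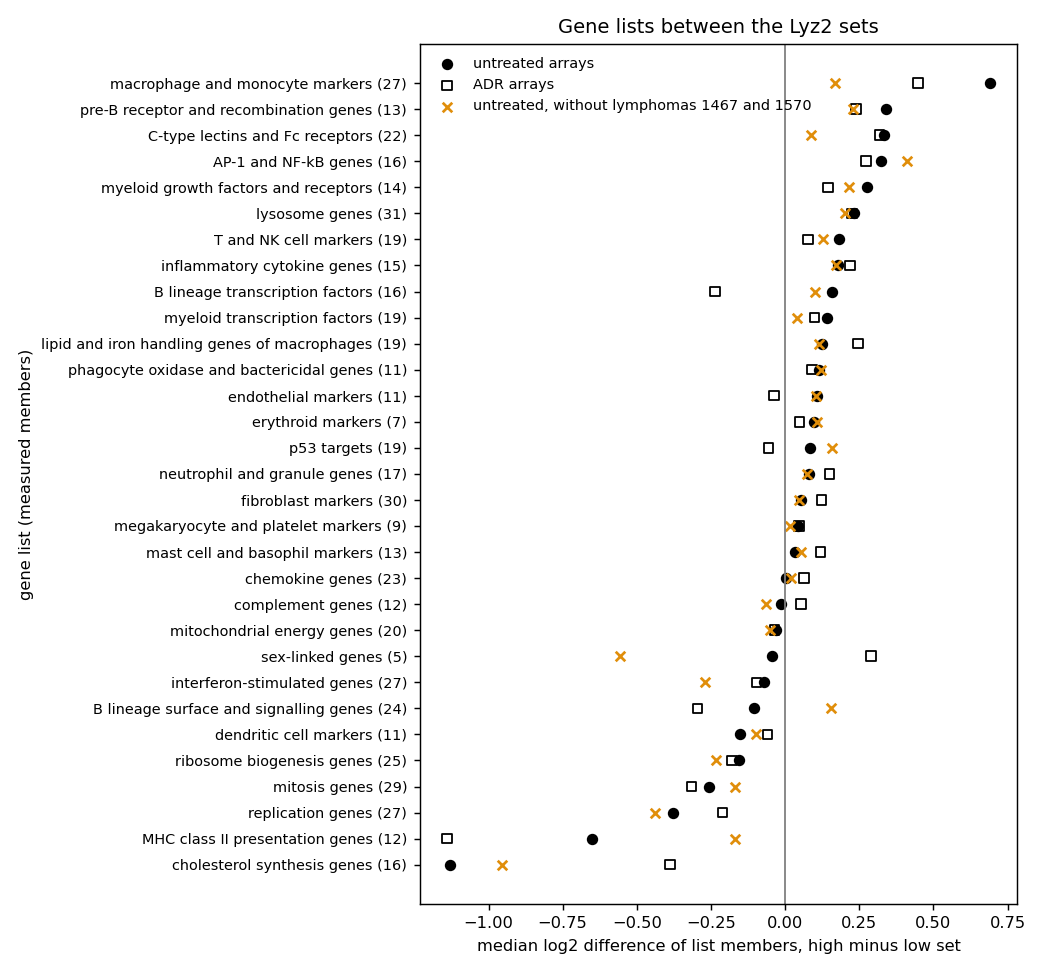
Median log2 difference (high-Lyz2 minus low-Lyz2 set) of each of 31 gene lists, with the number of measured members, in untreated arrays (black circles), in ADR arrays (open squares) and in untreated arrays without lymphomas 1467 and 1570 (crosses). Cholesterol synthesis stands lowest in untreated arrays at -1.13, and the macrophage list is highest at 0.69 but 0.17 without those lymphomas.

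Xist, the RNA that silences an X chromosome, ran from 4.28 to 12.33 in the high set and from 4.52 to 12.05 in the low set. It was under 6 in lymphomas 5560, 3594, 3802 and 403, that is in 3 of the high and 1 of the low set. Its part in the differences above was not tested. With the naming set as a covariate, the untreated medians were -1.05 for the cholesterol, 0.71 for the macrophage and -0.48 for the MHC class II list.

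After ADR, differences between the same lymphomas were tested. No gene passed an adjusted p under 0.05 in limma (0% of 18193), 548 genes (3.01%) had an unadjusted p under 0.05 (349 higher, 1.92%, and 199 lower, 1.09%), none was called with the trend and robust options either, and 30 (0.165%) had sets without overlap. Of these 30, 24 (0.132%) were higher and 6 (0.033%) lower in the lymphomas of the high set. The 8 genes with the lowest p were Zfp40, Asic4, Pou3f1, Dtna, Zfp775, Thbs4, Zbtb2 and Tex45, each with an adjusted p of 0.999 in limma. Zbtb2 was at 6.53 ± 0.20 against 6.07 ± 0.16 (SD, n = 6 each). Zfp40, a zinc-finger gene, was near background at 4.04 ± 0.27 against 4.70 ± 0.20 (SD, n = 6 each), as were the others. Of the 51 genes other than Lyz2 that were higher without overlap in untreated arrays, 46 had the same direction after ADR, and of the 64 lower ones 58, but none was without overlap there. Mmp12 was at 10.08 ± 1.54 and 8.42 ± 2.92 (SD, n = 6 each) after ADR, a difference of 1.66 (limma adjusted p = 0.999) that was -0.02 without 1467 and 1570.

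The cholesterol list differed less between the same lymphomas after ADR. All 16 genes were lower in the lymphomas of the high set, against 45.6% of all genes, but none 2-fold lower, against 0.418% of all genes. The median was -0.39, or -0.22 without 1467 and -0.11 without 1467 and 1570, and turned to 0.22 within the DOX lymphomas. The list mean was 7.03, 6.93, 6.75, 7.08, 6.67 and 7.89 in lymphomas 5560, 6054, 3769, 3594, 2949 and 3802. It was 7.64, 6.88, 6.91, 7.21, 8.36 and 7.75 in lymphomas 403, 7050, 5766, 2581, 1467 and 1570. The sets now overlapped, with 3802 of the high set among the upper values. From untreated to ADR the list mean changed by -1.32 on average in the low set and by -0.49 in the high set, a description since the untreated arrays had chosen the sets. Srebf2 remained lower by 0.80 (7.02 ± 0.44 against 7.81 ± 0.64, SD, n = 6 each; limma adjusted p = 0.999). The macrophage list changed by 1.19 in the high and 1.36 in the low set, and its median difference after ADR was 0.45, or -0.01 without 1467 and 1570. Leaving out 1 lymphoma lowered it to 0.12 (1570), 0.19 (3594), 0.21 (3769), 0.23 (5560) or 0.24 (1467), or raised it to 0.80 (2949). Fibroblast markers were higher after ADR by 2.12 and 2.06, and 18 of 30 were higher in the lymphomas of the high set, against 54.4% of all genes, with a median of 0.12 that turned to -0.59 without 1467 and 1570.

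**Figure D5:**
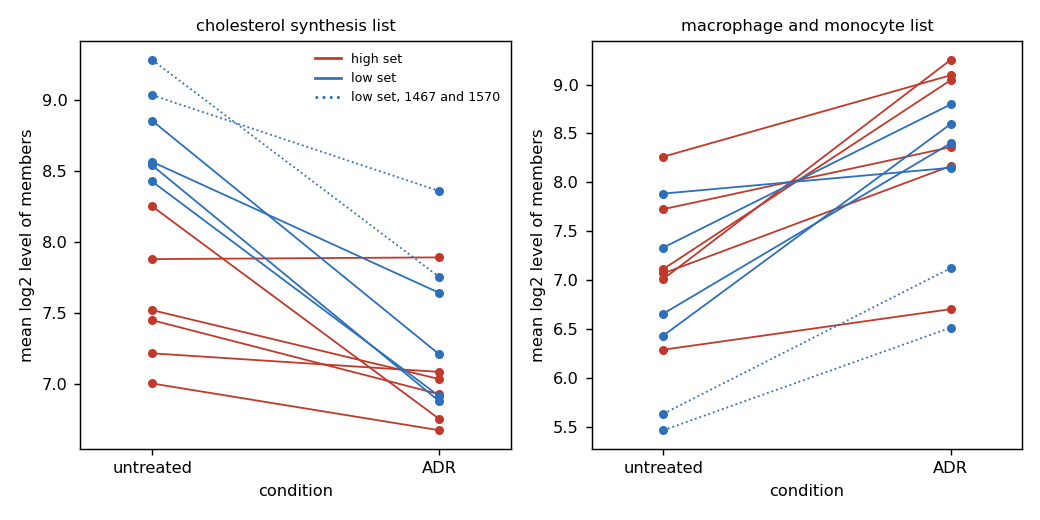
Mean log2 level of the 16 cholesterol synthesis genes (left) and the 27 macrophage and monocyte markers (right) in the untreated and the ADR array of each lymphoma, with lines joining arrays of 1 lymphoma, red for the high-Lyz2 and blue for the low-Lyz2 set. The cholesterol list separates the sets in untreated arrays (7.0 to 8.25 against 8.42 to 9.28) and overlaps after ADR.

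With untreated Lyz2 as a continuous predictor in place of the 2 sets, 363 genes were called in ADR arrays at an adjusted p under 0.05 in limma (2% of 18193), 98 higher (0.539%) and 265 lower (1.46%) with Lyz2. None was called without lymphomas 1467 and 1570. Among the 363 were 7 of 12 MHC class II genes and 7 of 24 B-lineage surface genes, all lower, and 5 of 27 macrophage markers (Lyz1, Csf1r, Gpnmb, Trem2 and Mpeg1), all higher; of these Lyz1 is read by the probe sets that follow Lyz2. Ciita, the master regulator of MHC class II, changed by -0.48 per log2 unit of Lyz2 (limma adjusted p = 0.00048) and Mmp12 by 0.93 (limma adjusted p = 0.0087). In untreated arrays the same predictor called 50 genes (0.275%), and 2 without those lymphomas, both higher with Lyz2. Of the 16 measured cholesterol synthesis genes, 2 were among the 363, both lower with Lyz2, and 0 were among the 50. Both untreated fits included Lyz2 itself, whose call on its own values is fixed in advance, and Lyz1, whose probe sets follow it.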

How the data were processed

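Gene expression was measured on Affymetrix arrays in 12 lymphomas, untreated and after ADR. The authors deposited log2 values, made with RMA in Partek per the submitters' processing notes; versions and settings are not given in the sources used here, and the log2 scale was read from the values, which run from 1.97 to 14.36. Probe sets were named through the platform annotation (34945 with 1 gene symbol, 932 with several, 9160 with none, 64 controls), 34741 of them matched RefSeq by Entrez ID, and for each gene the probe set with the highest mean over 24 arrays was used. Sets were compared with limma 3.58.1 in R 4.3.3 (lmFit, eBayes, Benjamini-Hochberg over 18193 genes), a procedure tested on simulated data, and Lyz2 after ADR by an exact permutation over 924 splits. Fold means 2 to the power of the log2 difference. The number of arrays limits the precision.

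Genes named were the 12 largest higher and 8 largest lower differences without overlap, the 2 largest of each of 31 gene lists with the largest against most members, the 8 genes of lowest p after ADR, and a fixed set of marker genes. Other members were named after their values were seen. The members and lists were chosen with earlier results of these data known, and 4 lists (sterol pathway order, sterol sensing, fatty acid synthesis, LXR targets) and the comparisons without the 2 lymphomas lowest in Lyz2 and within naming sets were added after seeing the data. The labels number the lymphomas, so each untreated and ADR pair comes from the same lymphoma, which is 1 mouse's tumour; a fit over all 24 arrays with lymphoma as a random block gave a correlation of 0.298 within lymphomas. Alternatives covered Lyz2 as a continuous predictor, scaling, probe set choice, covariates, low-level filtering and leaving out each lymphoma.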

Additional observations from a re-analysis of the deposited data

Results flagged for a closer look

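In 15 of 292 groups of 6 arrays, the highest or lowest array was set apart from the rest. The groups were the means of the 31 gene lists, the fixed marker genes and the genes named for the largest differences without overlap, in each set and condition. The 292 include groups wholly at background, which were not examined. Chance sets apart about 1 in 20 of the groups examined. In untreated high-set arrays, lymphoma 6054 had Col1a2 at 7.18 (nearest 5.39), and lymphoma 5560 had Mki67 at 9.61 (nearest 10.67), Mmp8 at 10.33 (nearest 7.37), the mitosis list mean at 8.53 (nearest 9.21) and the mean of the sex-linked genes at 3.07 (nearest 4.48). In untreated low-set arrays, lymphoma 5766 had Col1a2 at 6.90 (nearest 5.22), Vpreb1 at 7.25 (nearest 4.73) and the T and NK cell list mean at 5.29 (nearest 4.79). There, lymphoma 2581 had Myc at 12.03 (nearest 11.27), and lymphoma 403 had Tnfsf13b at 5.99 (nearest 3.98) and Xist at 4.52 (nearest 11.07). In ADR arrays, lymphoma 2949 had Ptger4 at 4.89 (nearest 7.02), lymphoma 3802 had Vpreb1 at 10.64 (nearest 5.69) and the cholesterol list mean at 7.89 (nearest 7.08), and lymphoma 403 again had low Xist at 5.16 (nearest 11.28).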

How the results depend on the processing

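Lyz2 as a continuous predictor, scaled to the distance between the set means, called 50 untreated genes and 363 ADR genes. It gave an untreated cholesterol median of -0.72. Without the 2 lymphomas lowest in Lyz2 this predictor called 2 and 0, with an untreated cholesterol median of -0.49. The untreated fits included Lyz2 itself, on its own values. With the naming set as a covariate 1 untreated gene was called, and 2 were called with the probe set of largest variance. A fit with lymphoma as a random replicate block over all 24 arrays called 2 genes untreated and 0 after ADR. Its list medians equal those of the main fit by design, since each lymphoma has 1 array per condition, so they are no check of the medians. Genes without overlap numbered 249 without the 2 lymphomas at the dividing line and 229 without 1467 and 1570, where fewer arrays have to be parted. Leaving out 1 lymphoma at a time gave 129 to 235 such genes, 0 called genes in either condition, untreated medians of 0.40 to 0.89 for the macrophage (0.40 without 5560, 0.44 without 1467 and 0.41 without 1570) and -1.32 to -1.03 for the cholesterol list, and ADR medians of -0.61 (without 3802) to 0.07 (without 2949) for mitosis, -0.40 (without 3802) to -0.07 (without 2949) for replication, 0.12 (without 1570) to 0.80 (without 2949) for the macrophage and -1.44 to -0.75 (without 1570) for the MHC class II list. Within the sen lymphomas, where the high set is lymphoma 5560 alone and is assumed to vary like the others, the macrophage median was 1.78 untreated and 1.68 after ADR, replication -0.77 and mitosis -1.02 untreated, and MHC class II -2.58 after ADR. Within the DOX lymphomas the MHC class II median was 0.21 untreated and 0.35 after ADR, and that of cholesterol synthesis after ADR 0.22. Of 119 named genes, 102 to 119 kept their untreated direction over all settings, and 66 (within DOX) to 119 their ADR direction. Otherwise the cause of these shifts was not tested.

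The sets have 6 lymphomas each, 2 of which hold much of the low set's range in Lyz2, and each lymphoma has 1 array per condition, so spread between cultures of the same lymphoma is unknown. The naming sets are unevenly divided between the Lyz2 sets. Levels near background have no usable fold, and defining neutrophil genes lie there.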
